A study of Caenorhabditis elegans with 2 samples.

Results

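Binding of the tagged nuclear hormone receptor NHR-129 was mapped at 10 genes of fat metabolism in Caenorhabditis elegans. The genes were nhr-49, nhr-80, mdt-15, sbp-1, acs-2, fat-5, fat-6, fat-7, lbp-3 and pod-2, out of 19973 protein-coding genes in the annotation. They were chosen by name for their roles, with earlier results of these data known, and all 10 names were found. Every call of the authors' ce11 lists was taken whose summit, the position of highest signal, lay from 2000 bp upstream of the gene start to the gene end. The gene models came from Ensembl release 115 on WBcel235, the same assembly as ce11. By this rule the 10 genes held 8 of the 6626 peaks that passed the authors' reproducibility threshold. They also held 43 of the 30000 calls that the authors made on the pooled reads, the 8 included. The replicate lists gave 41 calls in replicate 1 and 40 in replicate 2, again out of 30000 in each list.

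The worms were whole L2 larvae of strain OP339, males and females pooled. The strain carries the allele ed3 of unc-119 and the integrated transgene wgIs339, which encodes a fusion of NHR-129 with eGFP, a green fluorescent tag. Both replicates shared this genotype and stage, and the labels record no treatment. The 2 biological replicates formed a single group, which leaves no contrast between conditions and no test. Per the labels the antibody bears the receptor's name. The sources used here do not give the transgene's promoter, the tissues it is active in or the sequencing depth. No untagged strain was analysed here, so signal from elsewhere than the tagged receptor cannot be told apart. In whole larvae, binding in fewer cells and weaker binding per cell cannot be told apart either. The signal of a call is the authors' score, and its scale is unknown. Pooled signals cannot be set against replicate signals, since the lists were made separately.

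NHR-49 is a nuclear hormone receptor of the HNF4 type that regulates fatty acid desaturation and beta-oxidation in the worm intestine. It works with partner receptors such as NHR-80 and with MDT-15, a subunit of the Mediator complex, which links DNA-bound regulators to RNA polymerase. MDT-15 also works with SBP-1, the worm relative of the SREBP regulators of lipid synthesis. Genes downstream include acs-2, for an acyl-CoA synthetase that primes fatty acids for oxidation. The desaturases FAT-5, FAT-6 and FAT-7 place a double bond in saturated fatty acids. LBP-3 is a fatty acid binding protein, and POD-2 is the acetyl-CoA carboxylase that commits carbon to fatty acid synthesis.

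Sequence around the strongest thresholded summit is shown for the 4 genes on chromosomes III, IV, V and X that had one. Each run holds 201 bases of WBcel235 with the summit at its centre, read 5′ to 3′ on the strand of the named gene. They are shown because they are the sequence that the thresholded calls of a coactivator, an oxidation enzyme, a desaturase and a fatty acid binding protein rest on. Capitals mark matches on either strand to 2 searched words, the TGATAA word read by intestinal regulators and the GA repeat. The runs lie at III:5835488-5835688 on the minus strand for mdt-15, V:15566574-15566774 on the plus strand for acs-2, IV:11916975-11917175 on the minus strand for fat-6 and X:3256881-3257081 on the plus strand for lbp-3. The fat-6 run also overlaps a coding exon of ZK822.10, and the other runs overlap no exon.
mdt-15: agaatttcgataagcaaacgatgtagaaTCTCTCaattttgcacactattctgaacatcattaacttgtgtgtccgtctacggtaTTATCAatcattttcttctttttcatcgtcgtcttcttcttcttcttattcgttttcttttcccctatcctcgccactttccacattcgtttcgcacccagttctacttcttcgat
acs-2: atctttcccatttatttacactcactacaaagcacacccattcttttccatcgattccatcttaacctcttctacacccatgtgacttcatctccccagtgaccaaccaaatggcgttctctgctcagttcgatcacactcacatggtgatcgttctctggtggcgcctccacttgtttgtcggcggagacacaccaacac
fat-6: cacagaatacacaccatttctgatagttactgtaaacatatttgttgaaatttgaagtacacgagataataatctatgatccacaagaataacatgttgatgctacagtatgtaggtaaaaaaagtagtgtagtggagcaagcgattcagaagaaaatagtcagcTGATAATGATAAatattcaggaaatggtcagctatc
lbp-3: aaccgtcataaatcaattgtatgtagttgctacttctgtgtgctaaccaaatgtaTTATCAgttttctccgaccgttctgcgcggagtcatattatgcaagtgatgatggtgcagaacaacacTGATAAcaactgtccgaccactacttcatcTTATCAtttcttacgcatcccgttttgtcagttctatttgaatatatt

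Of the 10 genes, 5 had a thresholded summit, namely nhr-49, mdt-15, acs-2, fat-6 and lbp-3. Across all coding genes 28% had one in the same window. The 3 genes nhr-49, acs-2 and lbp-3 had a thresholded summit in the promoter window, from 1000 bp before to 100 bp after a start, against 18.2% of coding genes. The same 3 genes held a peak that ranked among the 1000 strongest, against 5.76% of coding genes. In the relaxed lists 9 of the 10 genes had a call, with fat-7 the exception in each list. The share of coding genes with a relaxed call was 61.3% for the pooled reads, 62% for replicate 1 and 64.3% for replicate 2. The strong peaks at nhr-49, acs-2 and lbp-3 were known when the set was chosen, so these counts describe it and support nothing beyond that.

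Coding genes were split by window length into 4 classes of about equal size, and the share of coding genes with a thresholded summit was 20.9%, 20.3%, 28% and 42.7%, shortest to longest. The share was thus about the same in the classes of shorter windows and higher in the classes of longer ones. The window of lbp-3 (2784 bp) lay in the shortest class, those of fat-5, fat-6 and fat-7 in the next, and those of nhr-80 and acs-2 in the third. The windows of nhr-49, mdt-15, sbp-1 and pod-2 lay in the longest class. The strongest peak of the set stood at the gene with the shortest window. This peak was known when the set was chosen, so its place here describes the set alone. The 2 longest windows, those of sbp-1 (16200 bp) and pod-2 (17921 bp), held no thresholded peak. Together the windows held 0.111 thresholded peaks per kb, against 0.0661 per kb of genome, and 0.596 pooled calls per kb, against 0.299 per kb of genome. The genome values cover all sequence, inside and outside gene windows, so the densities are of unlike kinds. The short window of lbp-3 held 3 of the 8 thresholded peaks. Without lbp-3 the windows held 0.0721 thresholded peaks per kb, near the value for the genome, and 0.577 pooled calls per kb.

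**Figure D1:**
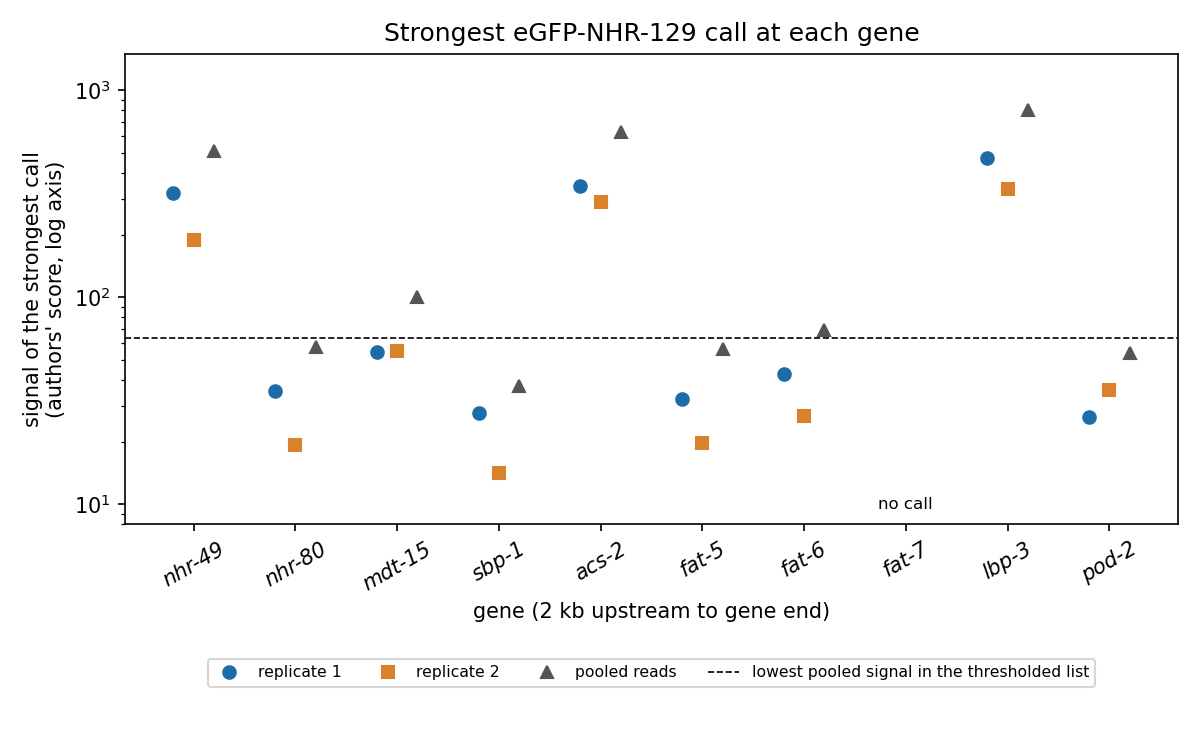
Signal of the strongest call (y axis, log scale, the authors' score) at each of the 10 genes (x axis) in replicate 1 (circles), replicate 2 (squares) and the pooled reads (triangles). The dashed line is the lowest pooled signal of the thresholded list (63.4) and applies to the triangles. The genes nhr-49, acs-2 and lbp-3 stand apart with pooled signals of 508 to 804, and fat-7 has no call.

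Among the receptors, nhr-49 itself carried a strong peak just upstream. The gene lies on chromosome I from 9869651 to 9874680 on the plus strand (WBGene00003639) and has 7 annotated transcripts with 6 starts. The peak covered positions 9869129 to 9869457, in intergenic sequence, with its summit 359 bp before the first annotated start. Its signal was 321 in replicate 1 (rank 185) and 189 in replicate 2 (rank 399), where rank 1 is the strongest call of a list. In the pooled reads it was 508 (rank 255), or 4.16 times the median of all thresholded peaks (122). Replicate 1 exceeded replicate 2 by 0.77 on the log2 scale, the widest gap among the 8 thresholded peaks.

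The other thresholded summit of nhr-49 lay in an intron, 1432 bp downstream of the first start and 145 bp from the nearest of its other annotated starts. It was a weak peak, with 43.5 in replicate 1 and 41.0 in replicate 2, and 80.5 in the pooled reads (rank 5248), or 0.661 times the median. Intronic calls below the threshold lay at 712 bp (pooled signal 33.9) and 2015 bp (21.4) downstream. The call at 712 bp overlapped one in both replicates, and the call at 2015 bp overlapped one in replicate 1 alone.

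By the rule of nearest log2 signals in both replicates, the coding genes whose strongest window peak was most like that of nhr-49 were ppfr-1, daf-14 and sqrd-1. The peak of ppfr-1, which encodes a regulatory subunit of a protein phosphatase, had signals of 317 in replicate 1 and 194 in replicate 2 (log2 distance 0.045). That of daf-14, a Smad protein of the dauer pathway, had 301 in replicate 1 and 185 in replicate 2 (distance 0.095). That of sqrd-1, a sulfide quinone oxidoreductase, had 299 in replicate 1 and 188 in replicate 2 (distance 0.105). The likeness is over 2 values and concerns height alone, and the summits lay 8132 bp downstream, 1870 bp downstream and 28 bp upstream of the start for ppfr-1, daf-14 and sqrd-1 in that order.

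NHR-80 acts with NHR-49 on the desaturase genes, and its own gene had no thresholded peak. It lies near the end of chromosome III, from 11985 to 14869 on the minus strand (WBGene00003670). The strongest call, 613 bp upstream, had 35.4 in replicate 1 and 19.4 in replicate 2. Its pooled signal was 57.6 at rank 7256, below the lowest thresholded signal of 63.4, and its deposited −log10 q was 3.68, against 4.15 for every thresholded peak. The summit was closer to the start of H10E21.1 (290 bp) than to that of nhr-80. A call 6 bp inside the gene had 33.7 in replicate 1, 35.3 in the pooled reads and no overlapping call in replicate 2. The nearest thresholded peak was 10882 bp upstream of the gene start (pooled signal 199).

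Of the cofactor genes, mdt-15 had 1 thresholded peak at the far end of its upstream window. The gene lies on chromosome III from 5828557 to 5833751 on the minus strand (WBGene00007016). The summit was in intergenic sequence 1837 bp upstream, and the nearest coding start was that of W04D12.1 at 1338 bp, so it fell in no promoter window. The pooled signal was 100 (rank 4168), and replicate 1 had 54.3 at the same position. Replicate 2 had 2 calls there. The stronger, at 55.2, had its summit 1667 bp upstream, 170 bp from the pooled one, and the weaker, at 35.8, had its summit 1866 bp upstream, closer to the pooled one. The ratio of the replicates at this peak thus depends on which call is matched. The gene held 9 pooled calls in all, or 1.25 per kb. The strongest below the threshold was in a coding exon 2102 bp downstream, at 24.8 in replicate 1, 25.7 in replicate 2 and 55.9 in the pooled reads.

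The SREBP relative sbp-1 had weak calls alone. Its gene (WBGene00004735) spans 11428367 to 11442566 of chromosome III, minus strand, and its window held 3 pooled calls, or 0.185 per kb. A call 886 bp upstream had 27.7 in replicate 1 (rank 8851) and 9.10 in replicate 2 (rank 29223), with a pooled signal of 37.1. The log2 ratio of 1.61 was the widest of the 10 genes in favour of replicate 1. The replicate 1 summit lay 159 bp from the pooled one. The replicate 2 signal was close to the lowest of its list (8.89). A call 31 bp inside the gene was level between replicates, at 15.1 in replicate 1 and 14.1 in replicate 2. A call 781 bp inside had 16.3 in replicate 1 and 13.1 in replicate 2. Of the 32-base words in the sbp-1 window, 45.3% occurred more than once in the genome, repeats inside the window included. None of those in its upstream 2000 bp did. In the other 9 windows the share was between 0 and 2.52%. Whether reads could be placed in the repeated stretch was not tested, and the read length is unknown.

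Among the enzymes of fat use, acs-2 had the strongest peak. The gene (WBGene00009221) lies on chromosome V from 15567394 to 15569897 on the plus strand, and the peak covered 15566477 to 15566822 in intergenic sequence with its summit 720 bp upstream. Signals were 344 in replicate 1 (rank 159) and 288 in replicate 2 (rank 145), and 628 in the pooled reads (rank 156), 5.15 times the median. Its rank was thus close to the same in every list. The gene body held 5 calls below the threshold, all in coding exons, with pooled signals from 15.9 to 43.4. The strongest of them, 855 bp downstream, had 49.7 in replicate 1 and no overlapping call in replicate 2.

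The fatty acid binding protein gene lbp-3 had the strongest peak of the set and the most thresholded peaks. It is a short gene on chromosome X, from 3257372 to 3258155 on the plus strand (WBGene00002255). The summit 391 bp upstream had 470 in replicate 1 (rank 69) and 335 in replicate 2 (rank 101). In the pooled reads it reached 804 (rank 78), 6.59 times the median. The peak was 266 bp wide, narrower than the 370 bp given to 5059 of the thresholded peaks. Narrow peaks are common among strong ones: 69.0% of the 300 strongest peaks were under 370 bp, against 21.5% of all thresholded peaks.

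Weaker thresholded peaks stood on either side of it. The summit 1491 bp upstream of lbp-3 fell in a coding exon of the tubulin gene tba-9, with 38.8 in replicate 1, 47.1 in replicate 2 and 88.3 in the pooled reads. The summit 661 bp downstream fell in a coding exon of lbp-3, with 50 in replicate 1, 40.4 in replicate 2 and 89.5 in the pooled reads. That peak lies 1109 bp upstream of lbp-1, for another fatty acid binding protein, and counts for both genes. All 3 pooled calls in the lbp-3 window were above the threshold, which was so at no other gene of the set.

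The desaturase genes of the set, fat-5, fat-6 and fat-7, were low or empty. At fat-6 (WBGene00001398, chromosome IV, 11913692 to 11915687, minus strand) a thresholded summit lay 1388 bp upstream, with 42.4 in replicate 1, 26.6 in replicate 2 and 69.8 in the pooled reads (rank 6031). It was the weakest thresholded peak of the set, and in replicate 2 its −log10 q was 2.58. It lay 62 bp from the start of ZK822.10, in the promoter window of that gene and not of fat-6. A call 350 bp upstream of fat-6, in the promoter windows of fat-6 and ZK822.9, was below the threshold at 23.1 in replicate 1, 24.3 in replicate 2 and 44 in the pooled reads. With 6 pooled calls in all, fat-6 had the highest density of the set (1.5 per kb).

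At fat-5 (WBGene00001397, chromosome V, 17725004 to 17726818, plus strand) the strongest call lay 1636 bp upstream. It had 32.3 in replicate 1, 19.7 in replicate 2 and 56.2 in the pooled reads (rank 7415, −log10 q 3.69), and so stood just below the threshold. The nearest thresholded summit was 3103 bp upstream with a signal of 88.0. At fat-7 (WBGene00001399, chromosome V, 7151353 to 7153146, minus strand) no list held a call in the window. The nearest pooled summit was 2499 bp downstream of the gene start, past the gene end, with a signal of 22.6, and F10D2.8 had the nearest coding start. The nearest thresholded summit was 43535 bp upstream. Each relaxed list ended at 30000 calls, with lowest signals of 9.24 in replicate 1, 8.89 in replicate 2 and 15.6 in the pooled reads, so weaker enrichment would not be listed. FAT-6 and FAT-7 are close relatives. Of the 3763 words of 32 bases in the fat-7 window, 24 also occurred in that of fat-6. Whether reads could be placed across the fat-7 window was not tested.

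The synthesis gene pod-2 (WBGene00004076, chromosome II, 1136785 to 1152705, plus strand) had 7 pooled calls over its long window, or 0.391 per kb, and no thresholded peak. The strongest was in an intron 5533 bp downstream, with 26.3 in replicate 1, 25.4 in replicate 2 and 54.0 in the pooled reads (rank 7703). A call 1532 bp upstream differed most towards replicate 2, with 17.8 in replicate 1 and 35.8 in replicate 2, a log2 ratio of -1.01. The matched calls had their summits apart, 1845 bp upstream in replicate 1 and 1505 bp upstream in replicate 2. This ratio thus rests on overlap at the edges of the calls. A thresholded peak of 63.5 (rank 6605), near the bottom of the list, lay 2143 bp upstream, just outside the window.

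**Figure D2:**
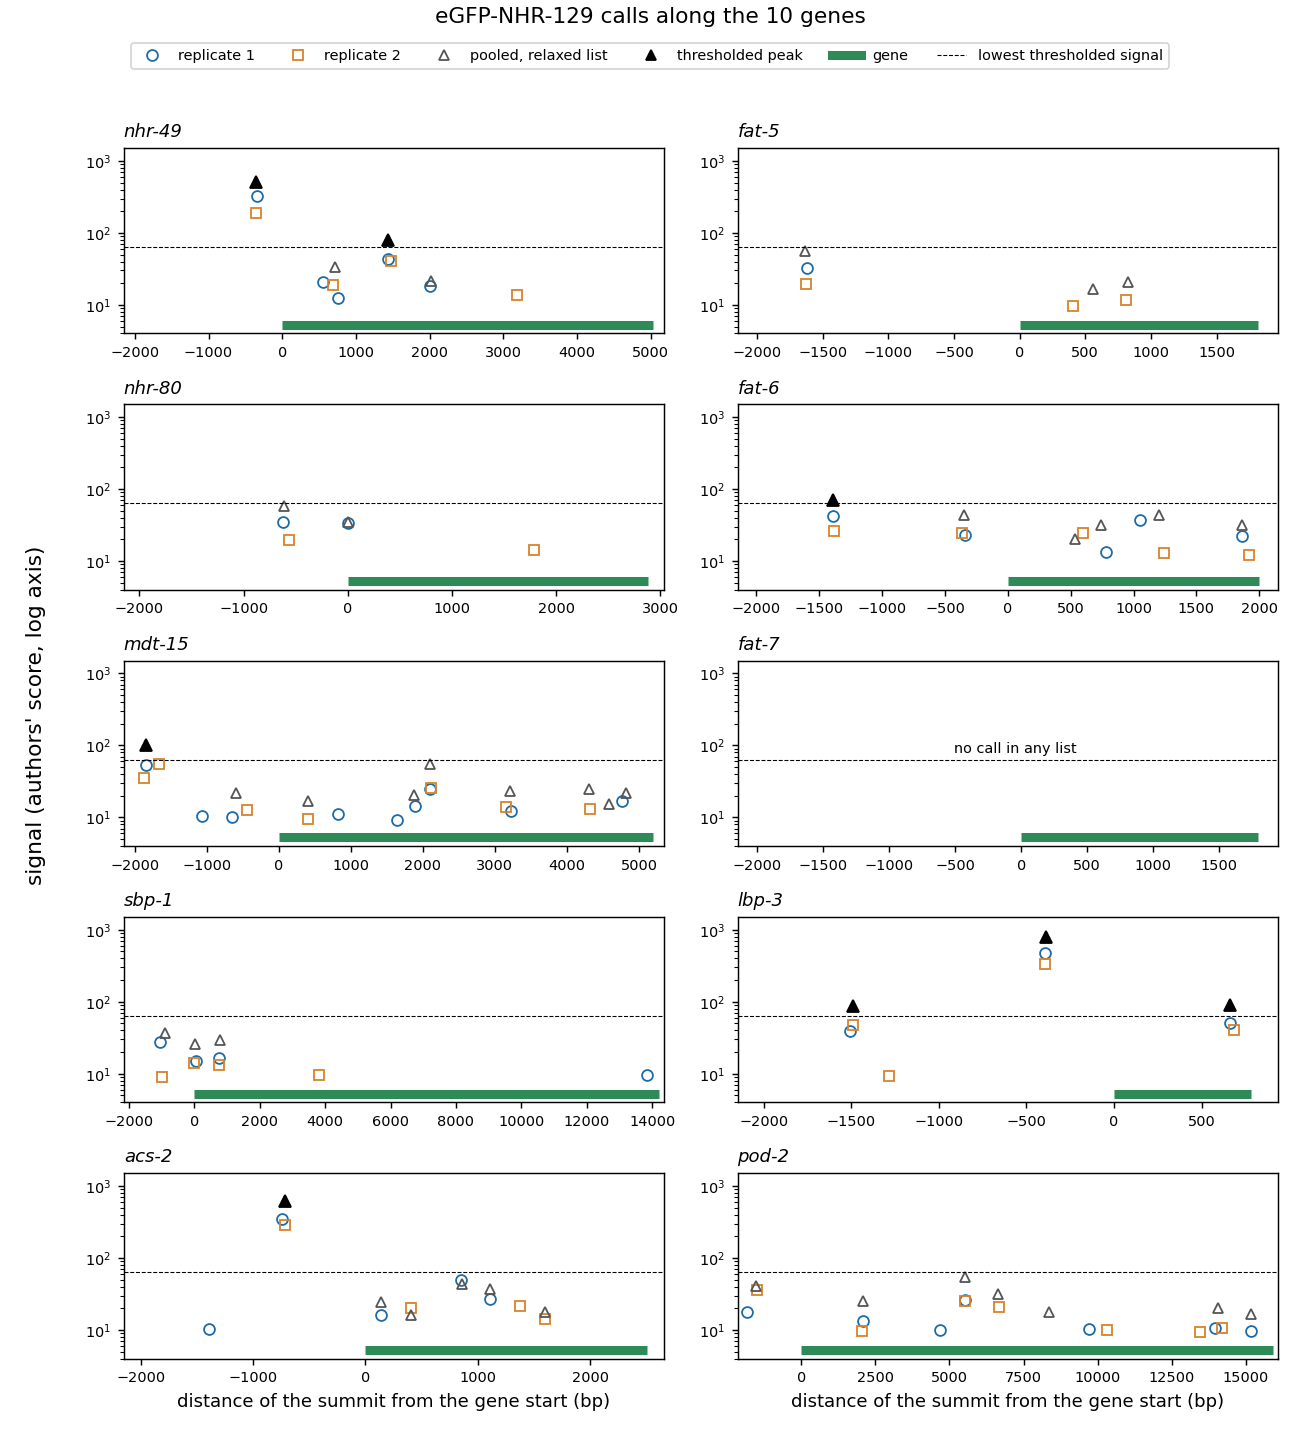
Position of each call in bp from the gene start along the direction of transcription (x axis) and its signal (y axis, log scale, the authors' score), with a panel for each of the 10 genes and marker shapes for the pooled reads and both replicates. The high calls of nhr-49 (508 pooled), acs-2 (628) and lbp-3 (804) all lie upstream of the gene, at 359, 720 and 391 bp, and the fat-7 panel is empty.

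All 8 thresholded peaks overlapped a call in each replicate, as did 6593 of the 6626 thresholded peaks in all. The list was selected on reproducibility, so this count says nothing particular of these genes. With the strongest overlapping call taken, the log2 ratio of replicate 1 over replicate 2 had a median of 0.28 over the 8 peaks (range -0.28 to 0.77, SD 0.36). Across the 6593 thresholded peaks with a call in both replicates the median was 0.31 (SD 0.49, 5th to 95th percentile -0.45 to 1.13). All 8 values thus fell in that range, and 4 of the 8 were above the median of all peaks. Of the 35 pooled calls below the threshold at these genes, 23 overlapped a call in both replicates, or 65.7%, against 53.9% of all pooled calls below the threshold. A further 11 overlapped a call in 1 replicate alone, and the call 8351 bp downstream in pod-2 in neither. Neighbouring pooled calls can match the same replicate call, as those 134 and 409 bp downstream in acs-2 did. Pooled calls were denser at these genes than in the genome, and whether this bears on the shares was not tested. Ratios below the threshold spread from -1.01, at the pod-2 call with its replicate summits apart, to 1.61. The latter was at the sbp-1 call, where the replicate 2 signal was close to the lowest of its list. Peaks are not replicates of a condition, and those of 1 gene share its chromatin.

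**Figure D3:**
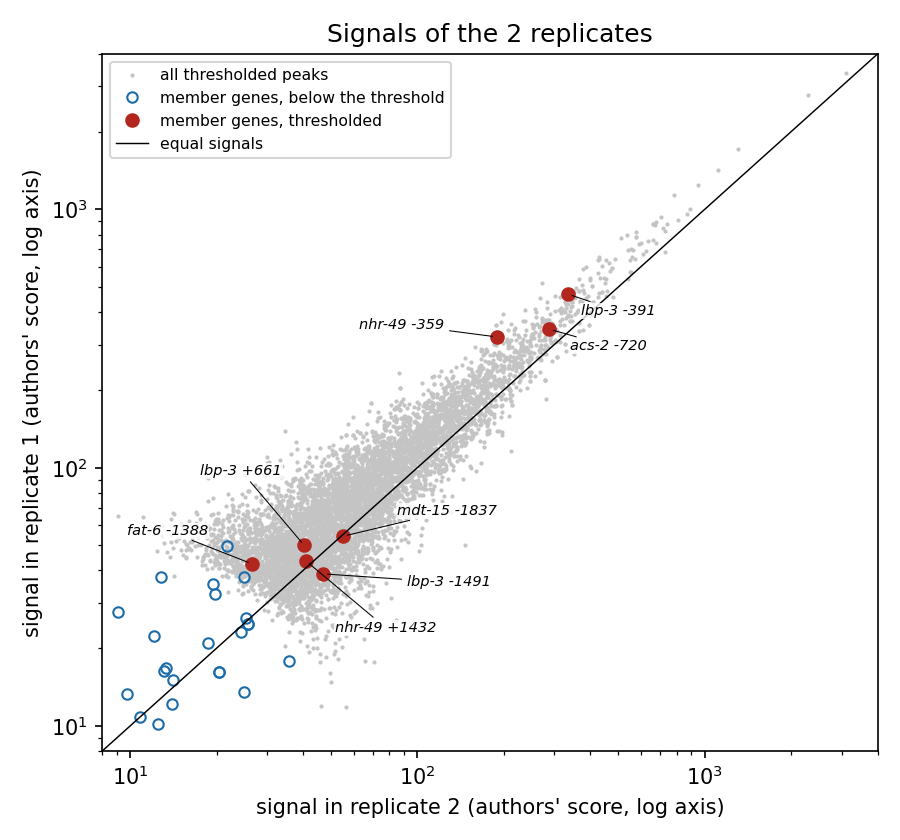
Signal in replicate 1 (y axis) against replicate 2 (x axis), both on log scales in the authors' score, for all thresholded peaks with a call in both replicates (grey), the 8 thresholded peaks of the 10 genes (filled, named with bp from the start) and their calls below the threshold (open). The line marks equal signals, and the filled points lie within the grey cloud, with nhr-49 -359 the farthest of them from the line (0.77).

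Searched words were counted within 100 bp of each thresholded summit on both strands. The nuclear receptor half-site AGGTCA was in none of the 8 windows, against 7.29% of all 6626 thresholded windows. The word TCAAAG was in 2, the intronic nhr-49 peak and the upstream lbp-3 peak in tba-9, against 11.5% of all. The E-box CACGTG was in 1, the peak inside lbp-3, against 8.92% of all. The repeat GAGAGA was in 4, both nhr-49 peaks, the mdt-15 peak and the lbp-3 peak in tba-9, against 44% of all. None of the 8 held TCACNCCAC (a sterol element type, 0.875% of all), TTACGTAA (0.181%) or TTGCGCAA (0.830%). A match is a description of letters in a window, not of a bound site.

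TGATAA, the core of the word read by GATA factors such as those of the worm intestine, was in 3 of the 8 windows, against 15.2% of all. The mdt-15 run printed above holds it once, 15 to 10 bases before the summit on the other strand. The fat-6 run holds 2 copies end to end, 65 to 70 and 71 to 76 bases after the summit. The lbp-3 run holds 3 copies, at 45 to 40 bases before and 23 to 28 and 53 to 58 bases after the summit. Windows with 3 or more copies numbered 39 of all 6626, or 0.589%, a count chosen after the lbp-3 window was seen. The acs-2 window held none of the 8 words, so no word searched was common to the 3 strongest peaks. The share of G and C was 44.8% at the upstream nhr-49 peak and 47.8% at acs-2, against a median of 42.8% for all thresholded windows (quartiles 38.8 and 47.3%). In the windows with TGATAA it was 37.8% at mdt-15, 32.8% at fat-6 and 38.3% at the upstream promoter peak of lbp-3, all below the lower quartile. The intronic nhr-49 window (35.3%) and the window inside lbp-3 (34.3%) lay below it too and held no TGATAA. Whether a low share of G and C bears on the matches was not tested.

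The wider pathway was read from 9 lists of fat metabolism genes, with 154 genes besides the 10. Of these, 73 had a thresholded summit in the window, or 47.4%, against 28% of coding genes, and 39 had one in the promoter window, or 25.3%, against 18.2%. The strongest signal at such genes had a median of 166, against 143 over all coding genes with a thresholded summit. Some genes are in more than 1 list, some share a summit, and window length was not matched.

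Among the 9 lists, those of nuclear receptors, phosphatidylcholine genes and Mediator subunits had the highest shares. Nuclear receptors that work with NHR-49 or on fat had 11 of 16 (68.8%), led after nhr-49 by nhr-68 (336), the steroid receptor gene daf-12 (239) and nhr-66 (231), for a partner of NHR-49. Mediator subunits had 16 of 24 (66.7%), led by mdt-9 (718), mdt-26 (474), mdt-6 (341) and mdt-22 (243). The mdt-9 summit also lay in the promoter windows of lsm-3, Y62E10A.20 and Y62E10A.23. The mdt-6 summit also lay in those of Y57E12AL.1 and Y57E12AL.6, and the nhr-68 summit in that of H12C20.7. The signal of mdt-15 (100) was below the median of 180 over the list's genes with a summit. Genes for phosphatidylcholine synthesis and SREBP partners had 8 of 12 (66.7%). Their strongest were cept-2 (444), for a choline and ethanolamine phosphotransferase, the lipin gene lpin-1 (321), pcyt-1 (166) and the choline kinase gene ckb-2 (153). The pcyt-1 summit lay in the promoter windows of unc-98 and F08C6.18 and not in its own. The summits of daf-12, nhr-66, mdt-26, lpin-1 and ckb-2 lay in no promoter window.

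Among enzyme lists, acyl-CoA synthetases had 11 of 21 (52.4%), with acs-2 first and then acs-20 (321), acs-13 (280) and acs-17 (259). The list of fatty acid synthesis had 3 of 6 (50%). They were mlcd-1 (107), for malonyl-CoA decarboxylase, the fatty acid synthase gene fasn-1 (93.0) and the ATP citrate lyase gene acly-1 (90.1). The decarboxylase breaks malonyl-CoA down and is not an enzyme of synthesis. The mlcd-1 summit also lay in the promoter window of idhg-1. Lipases and lipid droplet genes had 7 of 15 (46.7%), led by lipl-2 (432), the perilipin gene plin-1 (235), abhd-5.2 (224) and lipl-7 (172). The lipl-2 summit lay in the promoter window of ztf-7 and the lipl-7 summit in that of tkt-1, and neither in its own. The plin-1 summit lay in its own and in that of W01A8.2. Desaturases and elongases had 8 of 19 (42.1%). The desaturase gene fat-2 led them (548, pooled rank 215, with 299 in replicate 1 and 247 in replicate 2, 1234 bp upstream). It was followed by fat-3 (pooled rank 2519), the elongase gene elo-6 (rank 3097) and art-1 (rank 4125). The art-1 summit lay in the promoter window of sod-1 and not of art-1. The summits of acs-20, acs-13, acs-17, fasn-1, abhd-5.2, fat-2 and fat-3 lay in no promoter window.

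Lipid binding and lipoprotein genes had 5 of 16 (31.2%), with lbp-3 first, then lbp-9 (227), lbp-2 (127) and lbp-1 (89.5). The lbp-9 summit also counted for the receptor gene nhr-86, and that of lbp-1 was the peak inside lbp-3. Beta-oxidation genes had 9 of 37 (24.3%), near the 28% of all coding genes. Their strongest were ech-2 (415) and ech-1.2 (407), for proteins of the enoyl-CoA hydratase family, the carnitine palmitoyltransferase gene cpt-2 (280) and the acyl-CoA dehydrogenase gene acdh-9 (246). The cpt-2 summit also lay in the promoter window of C08F8.9, and the acdh-9 summit in that of F28A10.13. The summits of ech-2, ech-1.2 and lbp-1 lay in no promoter window. In the promoter window 3 lists were below the 18.2% of all coding genes, desaturases and elongases with 2 genes (10.5%), lipases and lipid droplet genes with 2 (13.3%) and beta-oxidation genes with 6 (16.2%). These counts are small, and whether the shares differ from that of all coding genes was not tested. The other lists ranged there from 23.8% for acyl-CoA synthetases to 43.8% for nuclear receptors. The peaks of nhr-49, acs-2 and lbp-3 exceeded those of every other gene in their own lists, and of the other listed genes mdt-9 and fat-2 were the ones above 508.

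**Figure D4:**
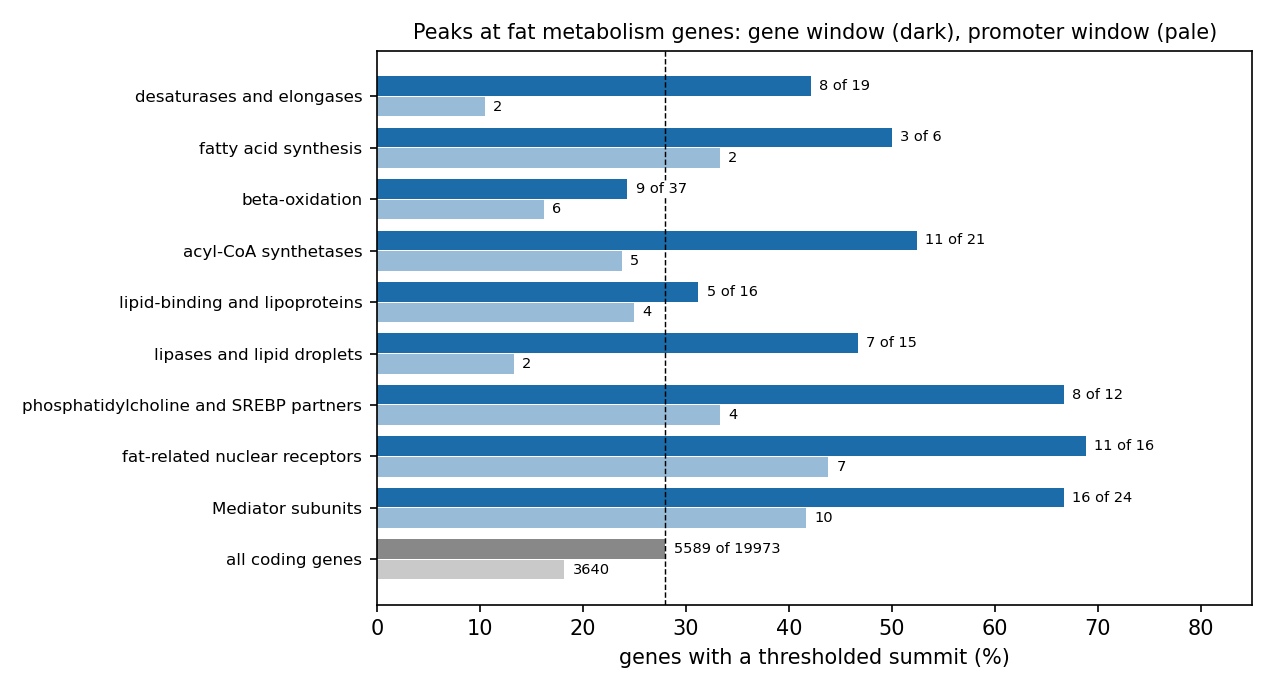
Share of the genes in each list (y axis, members of the set included) with a thresholded summit (x axis, percent), from 2000 bp upstream to the gene end (dark bars) or in the promoter window (pale bars), with counts beside the bars and all coding genes in grey at the bottom. The dashed line marks the share of all coding genes for the longer window (28%). Nuclear receptors (68.8%) and Mediator subunits (66.7%) are among the highest, and beta-oxidation genes (24.3%) lie below the line. The pale bars of desaturases (10.5%), lipases (13.3%) and beta-oxidation genes (16.2%) are shorter than that of all coding genes (18.2%). The lists are small, and no difference was tested.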

How the data were processed

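The lists of 2 biological replicates and their pool were used in ce11 coordinates. Per the descriptions deposited with the samples, relaxed lists came from each replicate's alignment and a control, and from the pooled alignments, and the thresholded list was selected from them by reproducibility. For the aligner, the peak caller, their versions and the depth: not given in the sources used here. Each call's signal and −log10 q-value are as the authors deposited them. With 1 q-value for all thresholded peaks, signal was used to rank them. Calls were matched to gene windows by summit, and to replicate calls by at least 1 bp of overlap, taking the strongest. Words were searched on both strands. Coordinates are 1-based. Window assignment was tested on simulated data. The members, lists and words were chosen with earlier results of these data known. Named genes are the members, genes with a member's thresholded summit in their promoter window, up to 4 genes per list by signal, and the 3 most like nhr-49. Genes named beside a summit for position were added after values were seen. Of 172 list names, 8 were not found in the annotation. Computation used Python 3.11.15, numpy 2.4.6, pandas 2.3.3 and matplotlib 3.10.9. No test was made, and no control library was analysed here.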

Additional observations from a re-analysis of the deposited data

How the results depend on the processing

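The genes nhr-49, acs-2 and lbp-3 had a thresholded summit under every alternative tried for the count of 5 genes and 8 peaks. Starting the window 1000 bp upstream left 3 genes and 5 peaks, and the promoter window, the peaks above the median signal and the 1000 strongest each left 3 genes and 3 peaks. A 5000 bp upstream window gave 7 genes, adding fat-5 and pod-2, and 14 peaks. With any overlap of the interval there were 6 genes and 10 peaks, and with the nearest coding start alone 4 genes, without mdt-15 and fat-6 and with pod-2. Lists of the same size without 1 replicate gave 5 genes each time, and 9 to 10 peaks. Without replicate 1, fat-6 was lost and pod-2 gained. The median log2 ratio of replicate 1 over replicate 2 at the 8 peaks was 0.40 with summits within 100 bp, and reversed to -0.07 on ranks (log2 of the rank in replicate 2 over that in replicate 1), a scale that removes the shift common to all peaks. The 73 other pathway genes became 39 in the promoter window and 13 for the 1000 strongest peaks, and 71 to 75 without 1 replicate. Peaks with any searched word numbered 7 of 8, 5 within 50 bp and 7 within 150 bp. Of the counts for single lists and words, 18 moved by over 1.5 times and 34 did not. No paired analysis was possible because there was 1 group. Depth is unknown, so how far it limits the weak calls could not be judged.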
